A study of Mus musculus with 36 samples.

Results

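Intestinal organoids that had spent 24 h with DMSO were set against the same cultures at the start (0 h) and described across all genes. The comparison holds 8 of the 36 libraries of the series, 4 at each time, taken by their condition labels. Organoids are epithelial cultures that grow in a gel from single intestinal cells and form their own stem, secretory and absorptive cells. Both groups came from the same 2 cultures, each grown from 1 of 2 male wild-type C57BL/6 littermates of 8 weeks, and RNA was purified in duplicate from each, with wells pooled before extraction. The 4 libraries of a group are thus n = 2 mice, the duplicates share a culture, and the cultures hold epithelium without the surrounding tissue. The 24 h group had grown in medium with EGF, Noggin and R-spondin (ENR), from which Wnt3a-conditioned medium, the ROCK inhibitor Y-27632 and the GSK3 inhibitor CHIR99021 had been withdrawn as DMSO was added. The 0 h group was taken at the end of the days with all of these supplements and had received no DMSO, so vehicle, withdrawal and time cannot be told apart. Both groups also shared the earlier amplification in a commercial growth medium and the antibiotics Penicillin-Streptomycin. The question was what organoids do over a day once the Wnt source and the GSK3 inhibitor are gone, with vehicle alone.

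In the intestine, Wnt signals from around the crypt base keep stem cells dividing, and cells that move up the villus leave the cycle. Most become enterocytes, which carry digestive enzymes on a brush border of microvilli and take up sugars, amino acids and fat. The others become secretory cells: goblet cells with mucus, Paneth cells with antimicrobial peptides, and enteroendocrine cells with hormones. CHIR99021 blocks the kinase that marks beta-catenin for destruction and so acts like a strong Wnt signal.

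Expression was given as RPKM, which divides the reads of a gene by its length and by a factor for the size of its library. The 8 libraries held 19.6 to 29.1 M reads recovered from the values, so that 1 read of a gene of 2000 bases was worth 0.0165 to 0.0244 RPKM. The labelled tissue matched its markers: Epcam, the epithelial adhesion molecule, averaged 472 ± 27.6 RPKM at 24 h and 396 ± 1.90 RPKM at 0 h (SD, n = 2 mice, as in all means ± SD), and Krt8 and Krt18, keratins of simple epithelium, averaged 3419.6 and 1775 RPKM at 24 h, with 3687 and 1881 RPKM at 0 h. Of markers of other tissues, 3 of 9 for fibroblasts, 3 of 6 for immune cells and none of 4 for endothelium had values. The fibroblast markers Pdgfrb, Acta2 and Vim lay at 0.165, 1.30 and 1.24 RPKM at 24 h, and at 0.0365, 1.45 and 0.723 RPKM at 0 h. The immune markers Cd68, Lyz2 and Itgam lay at 2.56, 1.95 and 2.04 RPKM at 24 h, and at 4.74, 1.08 and 2.10 RPKM at 0 h. The correlation of duplicates across genes was 0.995 to 0.998. On the first principal component of the 12 vehicle libraries at 0, 6 and 24 h, which held 68.9% of the variance, the 24 h libraries of mouse 2 (39.1 and 43.8) lay beyond those of mouse 1 (31.2 and 32.0), and the 0 h libraries lay between -23.0 and -15.9.

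Over 24 h the organoids gained transcripts of working gut epithelium in large steps and lost transcripts of growth and division in small ones. Of 11361 tested genes, 3317 were called higher at 24 h (29.2%) and 3437 lower (30.3%) at an adjusted p below 0.05 in limma, 59.4% in either direction. Changes of at least 2-fold were almost all rises: 553 genes rose that far (4.87% of those tested) and 19 fell that far (0.167%). All changes are log2 differences, 24 h minus 0 h, ± SE, and adjusted p-values are those of limma. They were taken after adding 0.5 to the RPKM, so the change of a gene with low values is understated. The median change of all tested genes was -0.011. Among rises, 53 genes exceeded 3 on that scale and 109 lay between 2 and 3. Among falls, 3 genes passed -2. The balance of higher and lower calls depended on the scaling: quantile normalization gave 2681 higher and 4385 lower genes, and scaling to the sum of reads gave 2560 and 4557. In 3163 genes the lowest 24 h library lay above the highest 0 h library, and in 3181 genes the highest 24 h library lay below the lowest 0 h library. Groups of a single gene that do not overlap were thus common, and the duplicates within them share a culture. Together, the genes that rose at least 2-fold held 8.42% ± 1.15 of all reads at 24 h, against 2.53% ± 0.0824 at 0 h (SD, n = 2 mice). In bulk RNA, more cells of a type and more RNA per cell cannot be told apart.

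**Figure D1:**
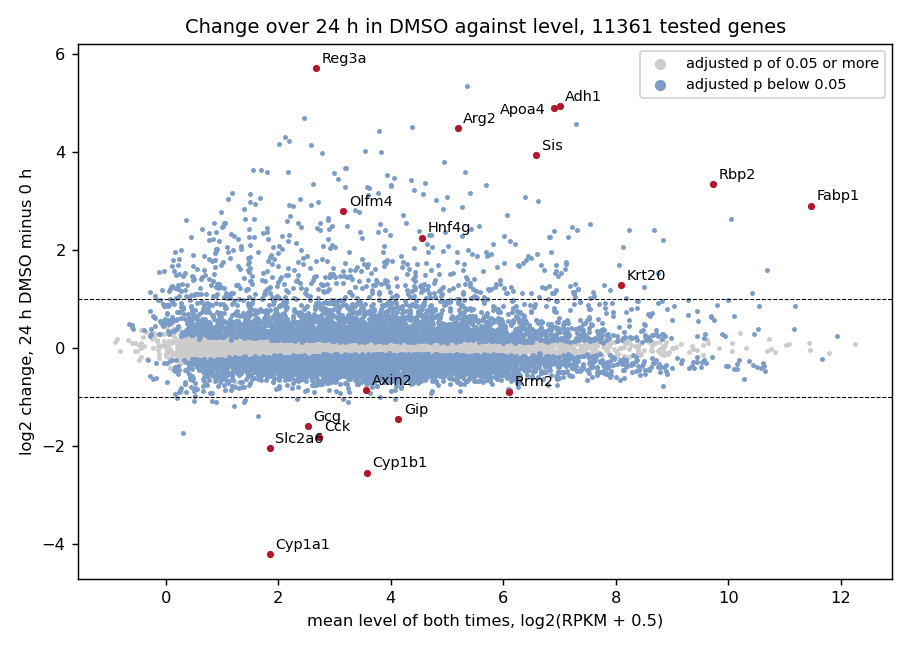
Change over 24 h (24 h with DMSO minus 0 h, log2 scale, y axis) against the mean level of both times (log2(RPKM + 0.5), x axis) for the 11361 tested genes, with blue points at an adjusted p below 0.05 and dashed lines at 2-fold. The 553 genes above the upper line reach up to the most abundant transcripts, such as Fabp1, while the 19 below the lower line, such as Cyp1a1, have low or middle levels.

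The digestive enzymes of the brush border rose as a whole list. All 14 tested members of 16 rose, each at least 2-fold, with a median change of 2.27, while Lct (lactase) and Tmprss15 (enteropeptidase) were too low to test. Treh, the enzyme that splits trehalose (gene at chromosome 9, 44673233 to 44686305, GRCm38), had 20.8 and 20.7 (mouse 1) and 30.3 and 35.6 (mouse 2) RPKM at 24 h, against 1.45 and 1.18 (mouse 1) and 0.855 and 1.35 (mouse 2) RPKM at 0 h. The groups were far apart, with a change of 3.98 ± 0.21 (adjusted p = 5.26e-09). Ggt1, a gamma-glutamyl transferase, changed most, by 4.23 ± 0.27. Among peptidases, Enpep (aminopeptidase A) rose by 3.56 ± 0.22 and Anpep (aminopeptidase N) by 2.28 ± 0.17. Sis (sucrase-isomaltase) and Alpi (intestinal alkaline phosphatase) averaged 376 and 571 RPKM at 24 h, against 23.9 and 137 RPKM at 0 h, so the starting organoids already held both. Mgam, the maltase-glucoamylase next to Sis in function, rose less (1.30 ± 0.078).

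Some promoters of the fat absorption and digestive enzyme genes, 4 of 31 for each motif, held letters known from binding sites of hepatocyte nuclear factors HNF4 and HNF1, which are also regulators of gut epithelium. The RefSeq promoter table (GRCm38.p6, 250 bases before to 50 after each gene start) matched 9088 of the 11361 tested genes. Among the genes that rose at least 2-fold, 435 of 553 matched. The promoters of Treh and Sis are shown because they had the largest rises of those lists with an HNF4, HNF1 or CDX motif. That choice used only the first listed promoter of each gene and left out the genes of a single chromosome. Capitals mark CAAAGTC or its reverse complement (HNF4 core) in Treh and the reverse complement of GTTAAT (part of an HNF1 site) in Sis, as a match to letters and not as a site in use.
Treh, chr9:44672983-44673282, plus strand: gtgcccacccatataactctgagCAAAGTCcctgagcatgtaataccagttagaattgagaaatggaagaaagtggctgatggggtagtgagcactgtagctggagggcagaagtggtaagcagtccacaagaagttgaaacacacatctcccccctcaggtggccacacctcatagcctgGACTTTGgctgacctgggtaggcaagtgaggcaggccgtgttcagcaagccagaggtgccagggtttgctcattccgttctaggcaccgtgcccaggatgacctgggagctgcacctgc
Sis, chr3:72967814-72968113, minus strand: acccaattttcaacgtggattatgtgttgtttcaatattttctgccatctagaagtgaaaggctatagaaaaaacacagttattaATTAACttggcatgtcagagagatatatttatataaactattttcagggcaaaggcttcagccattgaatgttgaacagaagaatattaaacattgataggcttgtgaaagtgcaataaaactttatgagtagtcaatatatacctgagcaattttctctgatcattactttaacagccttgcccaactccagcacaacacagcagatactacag
The matches in Treh start 227 and 69 bases before the gene start, and that in Sis 165 bases before it. Searched on both strands, CAAAGTC was in 12.9% of 31 promoters of these 2 lists, in 10.9% of 523 promoters of genes that rose at least 2-fold and in 3.86% of all 11541 promoters of tested genes. GTTAAT was in 12.9%, 11.7% and 4.49% of the same sets. The TATA box letters TATAAA were in 29.0%, 20.7% and 7.76%, and the CDX letters TTTATGG in 6.45%, 2.87% and 1.66%. Among 15 promoters of genes that fell at least 2-fold, TATAAA was in 26.7%, TTTATGG and GTTAAT each in 6.67% and CAAAGTC in 0%. CAAAGTC was also in 7.89% of 38 promoters of DNA replication genes and 2.70% of 37 promoters of mitosis genes. These are descriptions of letters in the windows, since the change itself chose the 523 and the 15 promoters.

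Fat absorption changed along its whole route. Of 21 genes 20 rose, 15 of them at least 2-fold, and the median change was 1.80. Fatty acids are bound in the cell by Fabp1 and Fabp2. Fabp1 was the most abundant transcript of the list and had 6531 and 5931 (mouse 1) and 8500.1 and 10142 (mouse 2) RPKM at 24 h, against 888 and 836 (mouse 1) and 1058 and 1369.8 (mouse 2) RPKM at 0 h, a change of 2.90 ± 0.21 (adjusted p = 9.98e-08). The 24 h libraries did not overlap with the 0 h libraries, and Fabp1 alone held 0.373% ± 0.0990 of all reads at 24 h, against 0.0532% ± 0.0130 at 0 h. Mogat2 and Dgat1, which rebuild triglyceride, rose by 2.12 ± 0.12 and 1.80 ± 0.063. Mttp, which loads triglyceride onto apolipoprotein B, rose by 2.41 ± 0.10, and Apob itself by 1.23 ± 0.10. The apolipoproteins that join the particle later rose further: Apoa4 had 545 and 495 (mouse 1) and 702 and 869 (mouse 2) RPKM at 24 h, against 19.8 and 24.1 (mouse 1) and 16.4 and 25.1 (mouse 2) RPKM at 0 h, Apoa1 changed by 4.56 ± 0.29 and Apoc3 by 3.60 ± 0.24. All 3 lie together on chromosome 9. The fatty acid transporter Cd36 was low at both times (3.91 ± 1.07 RPKM at 24 h and 0.242 ± 0.0923 RPKM at 0 h), yet rose by 2.55 ± 0.20. The lipid droplet coat gene Plin2 was not called (0.15 ± 0.068, adjusted p = 0.0796).

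Sugar uptake rose as strongly as the enzymes. All 9 tested genes of 10 rose, 8 at least 2-fold, with a median of 2.54. Slc5a1, the sodium-glucose transporter of the brush border, had 133 and 127 (mouse 1) and 178 and 223 (mouse 2) RPKM at 24 h, against 14.0 and 16.7 (mouse 1) and 14.7 and 17.0 (mouse 2) RPKM at 0 h. Its lowest 24 h library lay far above its highest 0 h library, and it changed by 3.33 ± 0.18 (adjusted p = 7.29e-09). The fructose transporter Slc2a5 rose by 2.78 ± 0.15, and the fructose-handling enzyme Khk by 2.48 ± 0.17. Slc2a2, the exit route for sugars, rose by 2.54 ± 0.14. G6pc, the last step of glucose release, averaged 16.0 ± 6.96 RPKM at 24 h and 2.21 ± 0.0866 RPKM at 0 h and rose by 2.55 ± 0.22.

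Most tested transporters of amino acids rose. Of 14 tested genes of 15, 10 rose and 2 fell, with a median of 1.27. The brush border carriers Slc6a19, for neutral amino acids, and Slc6a20a, for proline, rose by 3.46 ± 0.15 and 3.59 ± 0.19. The peptide transporter Slc15a1 had 5.76 and 6.17 (mouse 1) and 8.88 and 10.7 (mouse 2) RPKM at 24 h, against 0.409 and 0.648 (mouse 1) and 0.561 and 0.671 (mouse 2) RPKM at 0 h. Its groups did not overlap, and the change was 2.93 ± 0.13 (adjusted p = 1.18e-09). The 2 that fell, Slc7a5 (-0.76 ± 0.083) and Slc1a5 (-0.58 ± 0.047), feed leucine and glutamine to dividing cells. Minerals and ions gave 11 rises and 1 fall among 13 tested genes of 16, with a median of 0.59, and 8 rises under quantile normalization or scaling to read sums. Slc13a2, a dicarboxylate carrier, rose by 2.77 ± 0.21 and the chloride-bicarbonate exchanger Slc26a3 by 2.04 ± 0.085. Cybrd1, the brush border reductase for iron, fell by 0.99 ± 0.11, with 9.53 ± 2.84 RPKM at 24 h and 19.2 ± 3.49 RPKM at 0 h.

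The frame of the microvillus moved less than its enzymes. Of 16 genes 15 rose, 6 of them at least 2-fold, with a median of 0.79. Myo1a, the motor that ties the actin core to the membrane, averaged 204 ± 19.7 RPKM at 24 h and 70.7 ± 2.47 RPKM at 0 h and rose by 1.52 ± 0.07. Cdhr5, a cadherin that links the tips of microvilli, rose by 1.27 ± 0.088, while Vil1 (villin) rose by 0.65 ± 0.048 from a high level and Ezr (ezrin) by 0.26 ± 0.068, a call lost under quantile normalization (0.12) and on read sums (0.17). Espn, an actin bundler, rose by 1.67 ± 0.10. Myo7b, the motor of the tip complex, was level (0.0041 ± 0.06, adjusted p = 0.960).

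**Figure D2:**
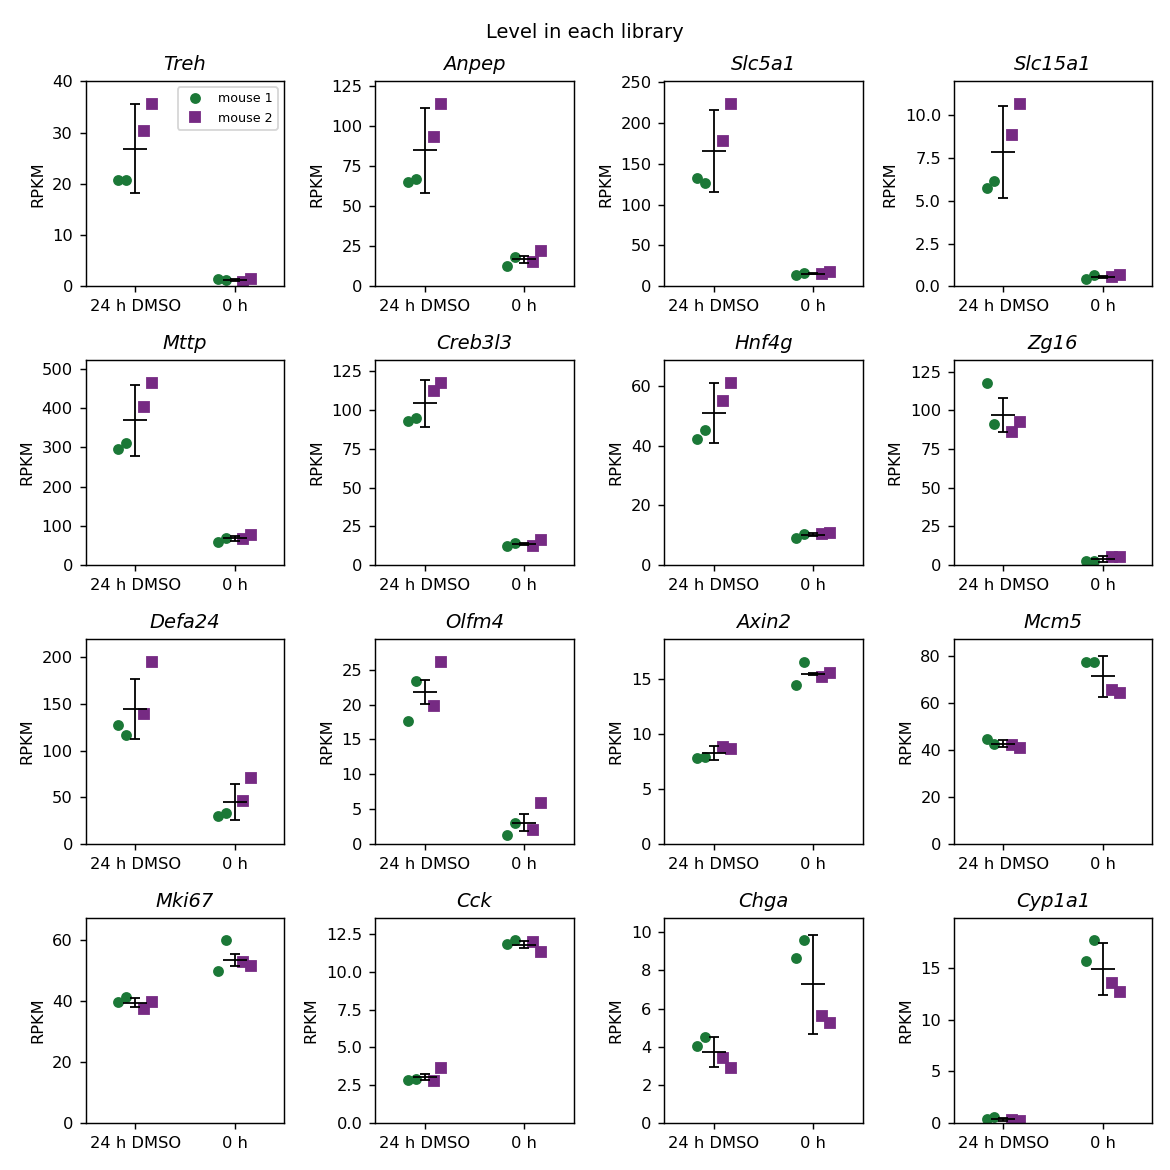
RPKM of 16 genes in each library, with 24 h DMSO on the left and 0 h on the right of each panel, green circles for mouse 1, purple squares for mouse 2, and black bars for the mean ± SD over the 2 mice. Treh, Anpep, Slc5a1, Slc15a1, Mttp, Creb3l3, Hnf4g, Zg16, Defa24 and Olfm4 are higher at 24 h in every library and Axin2, Mcm5, Mki67, Cck, Chga and Cyp1a1 lower, while the 24 h values of mouse 2 exceed those of mouse 1 for the absorptive genes from Treh to Mttp.

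Drug and steroid metabolism, a second duty of enterocytes, rose nearly throughout. Of 26 genes 24 rose, 22 of them at least 2-fold, and 1 fell, with a median of 1.90. Cyp3a11, a cytochrome P450 of broad substrate range, averaged 127 ± 22.3 RPKM at 24 h and 13.7 ± 0.111 RPKM at 0 h and rose by 3.16 ± 0.25. Fmo5, a flavin monooxygenase, rose by 3.80 ± 0.12 and Ugt2b5, which adds glucuronic acid, by 4.42 ± 0.17. Members of the Cyp3a, Cyp2c, Ugt2b, Ces2 and Gstm families are near copies of each other, and how the authors' counting split their reads is not given in the sources used here. Akr1b8, an aldo-keto reductase, fell by 0.28 ± 0.067.

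Genes that take up and oxidize retinol rose at 8 and fell at 1 of 10 tested, with a median of 1.43. Adh1 and Rdh7, which turn retinol into retinal, were among the 15 largest rises. Adh1 had 573 and 579.6 (mouse 1) and 806 and 891 (mouse 2) RPKM at 24 h, against 20.8 and 21.9 (mouse 1) and 20.3 and 27.2 (mouse 2) RPKM at 0 h, and its groups were far apart (4.93 ± 0.17, adjusted p = 2.05e-10). Rbp2, the retinol-binding protein of the enterocyte, reached 2704 RPKM at 24 h, against 268 RPKM at 0 h (3.34 ± 0.11). Aldh1a1, which makes retinoic acid, rose by 3.01 ± 0.12. Isx, the transcription factor that retinoic acid induces to limit vitamin A uptake, rose by 0.91 ± 0.10. Scarb1, one of the uptake routes that Isx represses, fell by 0.46 ± 0.067.

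The other genes of the 15 largest rises had varied roles. Arg2, the mitochondrial arginase, averaged 171 ± 27.5 RPKM at 24 h and 7.30 ± 1.64 RPKM at 0 h and rose by 4.49 ± 0.15. It belongs to a list of arginine and urea genes in which 6 rose and 1 fell of 10, with Otc (ornithine transcarbamylase) at 2.07 ± 0.17, Cps1 at 0.63 ± 0.15 and Ass1, which makes argininosuccinate, at -0.89 ± 0.10. Scin, an actin-severing protein, rose by 4.02 ± 0.13, the sulfate carrier Slc13a1 by 4.17 ± 0.13, Slc5a4b, of the sodium-glucose transporter family, by 4.13 ± 0.23 and the alcohol dehydrogenase Adh4 by 4.30 ± 0.26. The lectins Reg3a, Reg1 and Reg3b, secreted against bacteria, rose by 5.71 ± 0.29, 5.34 ± 0.16 and 4.00 ± 0.14. They belong to antimicrobial and immune genes of the lower villus, all 8 of which rose at least 2-fold (median 1.99). Reg3a had 30.3 and 30.7 (mouse 1) and 54.6 and 72.6 (mouse 2) RPKM at 24 h, against 0.233 and 0.454 (mouse 1) and 0.395 and 0.333 (mouse 2) RPKM at 0 h. It was near the limit of detection at the start, so its fold depends on the value of 0.5 added before the logarithm. Lypd8, which keeps flagellated bacteria off the epithelium, rose by 1.60 ± 0.10 to 2861 RPKM, and Il18, an epithelial cytokine, by 1.14 ± 0.10.

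Genes reported at the villus tip also rose, 9 of 9, with a median of 1.07; 3 of them are the apolipoproteins above. Nt5e and Ada, which handle adenosine, rose by 0.68 ± 0.094 and 0.81 ± 0.074, and Klf4, a transcription factor of post-mitotic cells, by 0.68 ± 0.094. Genes of the proximal and the distal small intestine moved in both directions. Of 7 tested proximal genes 3 rose and 2 fell (median -0.054), and of 6 tested ileal genes 3 rose and 1 fell (median 0.20). The shares over all tested genes were 29.2% higher and 30.3% lower. The ileal bile acid exporters Slc51a and Slc51b rose by 1.74 ± 0.089 and 2.92 ± 0.24, while Fgf15, the hormone by which bile acids act on the liver, fell by 0.42 ± 0.11. Fabp6, the ileal bile acid binder, averaged 0.0579 ± 0.0819 RPKM at 24 h and 0.0779 ± 0.0160 RPKM at 0 h. All 3 guanylin genes rose, with the ligand Guca2b at 3.58 ± 0.25 and its receptor Gucy2c at 0.69 ± 0.061.

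**Figure D3:**
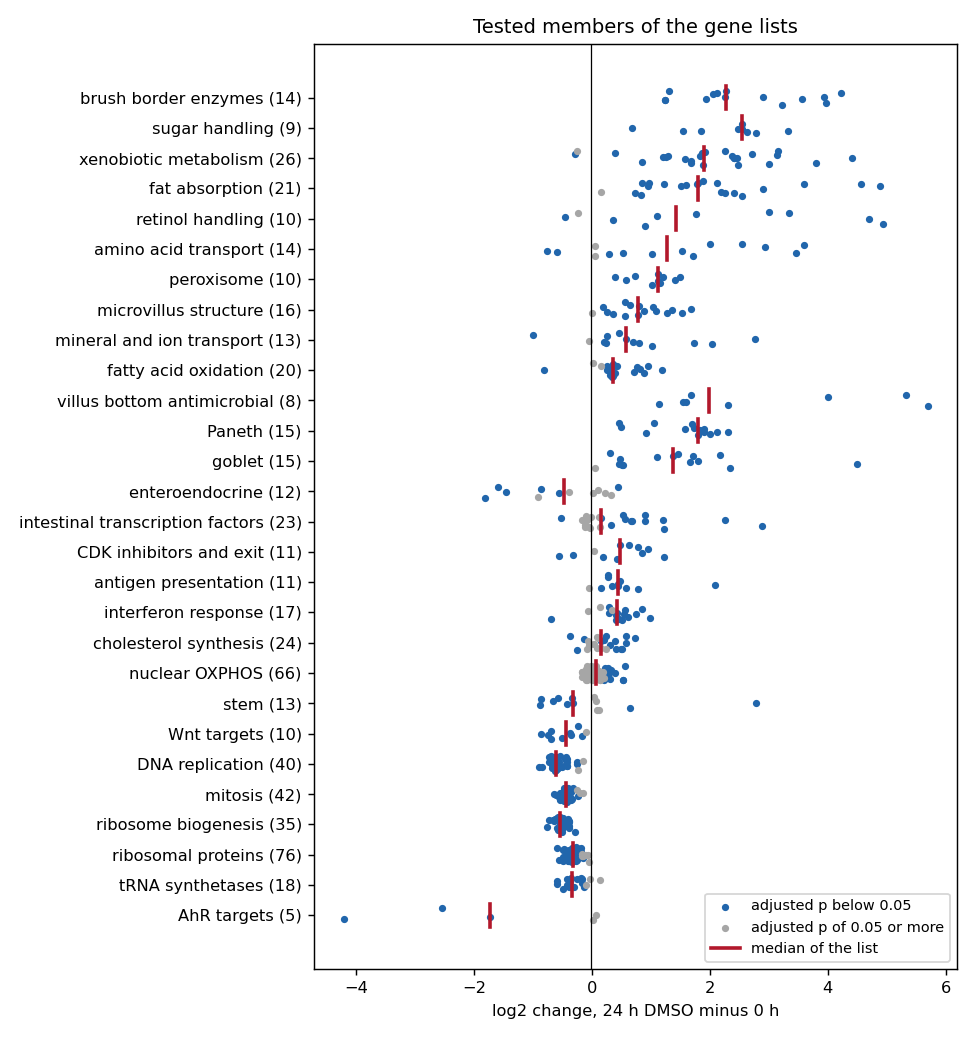
Log2 change (24 h DMSO minus 0 h, x axis) of every tested member of 28 gene lists, with the number tested in brackets, blue points at an adjusted p below 0.05, grey points otherwise, and a red bar at each list's median. The 14 brush border enzymes all lie at or above 1.25, the 40 DNA replication genes all lie below 0, and the black line marks the median of all tested genes, -0.011.

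Goblet and Paneth cell genes rose together with the absorptive genes. Of 15 tested goblet genes of 18, 14 rose, 9 at least 2-fold, with a median of 1.37. Zg16, a lectin of the mucus layer, had 118 and 91.5 (mouse 1) and 85.9 and 92.2 (mouse 2) RPKM at 24 h, against 2.69 and 2.66 (mouse 1) and 5.30 and 5.16 (mouse 2) RPKM at 0 h. Its groups did not overlap, with the highest 24 h value in mouse 1 (4.50 ± 0.24, adjusted p = 6.43e-09). The mucin Muc2 averaged 3.37 ± 0.735 RPKM at 24 h and 0.254 ± 0.0442 RPKM at 0 h and rose by 2.35 ± 0.11, and its companions in the gel Fcgbp and Clca1 rose by 1.47 ± 0.11 and 1.80 ± 0.26. Spdef, the transcription factor of goblet and Paneth cell maturation, rose by 0.51 ± 0.14, with 1.56 ± 0.0307 RPKM at 24 h and 0.950 ± 0.0146 RPKM at 0 h. Goblet genes together held 0.0778% ± 0.00423 of reads at 24 h, against 0.0297% ± 0.00143 at 0 h.

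All 15 tested Paneth cell genes of 18 rose, 12 at least 2-fold, with a median of 1.81. The alpha-defensin Defa24 had 127 and 117 (mouse 1) and 139 and 196 (mouse 2) RPKM at 24 h, against 29.7 and 33.4 (mouse 1) and 46.0 and 71.1 (mouse 2) RPKM at 0 h. The highest 0 h library of Defa24 (mouse 2) stayed below its lowest 24 h library, and the change was 1.73 ± 0.27 (adjusted p = 0.000130). Pnliprp2, a lipase made by Paneth cells in mouse, rose by 2.31 ± 0.24, the lysozyme Lyz1 by 1.05 ± 0.20 and Mmp7, which cuts the defensins into their active form, by 0.50 ± 0.14. Mmp7 lost its call without duplicate 1 of mouse 2 at 0 h (0.36). The defensin genes are near-identical copies, so the rise is that of the family and its split among members is uncertain. With scaling to read sums or quantile normalization, 14 of the 15 Paneth genes and 13 of the 15 goblet genes were called higher.

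Several enteroendocrine genes fell, hormone genes among them. Of 12 tested genes of 28, 5 fell, 1 rose and 6 were not called, with a median of -0.47. The shares over all tested genes were 30.3% lower and 29.2% higher. The median was -0.63 in mouse 1 and -0.13 in mouse 2, while each of the 5 called falls was present in both mice. Cck, the hormone that empties the gallbladder, had 2.87 and 2.89 (mouse 1) and 2.75 and 3.61 (mouse 2) RPKM at 24 h, against 11.8 and 12.1 (mouse 1) and 12.0 and 11.3 (mouse 2) RPKM at 0 h. Every 24 h value lay below every 0 h value, a change of -1.81 ± 0.18 (adjusted p = 2.03e-06). Gip and Gcg, the precursors of the incretins, fell by 1.45 ± 0.16 and 1.59 ± 0.21. Chga and Chgb, proteins of hormone granules, fell by 0.85 ± 0.12 and 0.56 ± 0.11. Chga differed between the mice at 0 h, with 4.03 and 4.53 (mouse 1) and 3.41 and 2.90 (mouse 2) RPKM at 24 h, against 8.64 and 9.58 (mouse 1) and 5.62 and 5.24 (mouse 2) RPKM at 0 h, and its groups did not overlap. Neurog3, the factor that starts the endocrine fate, was not called (2.07 ± 0.254 RPKM at 24 h and 1.74 ± 0.259 RPKM at 0 h), nor was the hormone gene Ghrl (0.32 ± 0.24). Cpe, a prohormone-processing enzyme also found outside endocrine cells, rose by 0.44 ± 0.06. Tuft cell genes were mostly too low to judge: 3 of 19 were tested, and Avil and Ltc4s rose by 0.56 ± 0.13 and 0.46 ± 0.16. Ltc4s lost its call without duplicate 2 of mouse 2 at 24 h (0.40) or duplicate 1 of mouse 1 at 0 h (0.41).

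Most tested Wnt target genes and 7 of 13 tested stem cell genes fell. Of 10 tested Wnt targets of 15, 9 fell and none rose, with a median of -0.44. Axin2, a feedback inhibitor that beta-catenin switches on, had 7.79 and 7.92 (mouse 1) and 8.78 and 8.69 (mouse 2) RPKM at 24 h, against 14.4 and 16.6 (mouse 1) and 15.2 and 15.5 (mouse 2) RPKM at 0 h. The groups did not overlap, and the change was -0.86 ± 0.068 (adjusted p = 2.55e-07). Rnf43, which removes Wnt receptors from the surface, fell by 0.69 ± 0.06, the Wnt effector Tcf7 by 0.74 ± 0.062, and the crypt sorting receptor Ephb2 by 0.69 ± 0.061. Myc fell by 0.37 ± 0.065 and Ccnd1 by 0.17 ± 0.044. Of the stem cell list of 16 genes, 13 were tested, and 2 rose and 4 were not called beside the 7 that fell. Ascl2, the Wnt-driven transcription factor of stem cells, fell by 0.87 ± 0.15, Cdca7, a target of Myc, by 0.87 ± 0.081 and Sox9 by 0.42 ± 0.071. Olfm4, a secreted glycoprotein used to mark stem cells, rose instead, with 17.7 and 23.4 (mouse 1) and 19.8 and 26.2 (mouse 2) RPKM at 24 h, against 1.31 and 3.04 (mouse 1) and 2.03 and 5.87 (mouse 2) RPKM at 0 h. Its groups did not overlap (2.79 ± 0.26, adjusted p = 1.35e-06). Gkn3, a gastrokine placed in the list as a stem cell marker, rose by 0.65 ± 0.19. Lgr5, the receptor that defines crypt stem cells, was under the filter, at 0.940 RPKM at 24 h and 0.764 RPKM at 0 h, and was not tested.

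Notch pathway and secretory fate genes rose at 5 and fell at 1 of 12 tested, while 6 were not called. Their median was 0.15, and the shares over all tested genes were 29.2% higher and 30.3% lower. The Notch ligand Dll1, carried by secretory precursors, rose by 0.57 ± 0.12 and Hes1, the Notch target that holds cells on the absorptive path, by 0.35 ± 0.087. Xbp1, needed for secretion, rose by 0.52 ± 0.052. Atoh1, the master factor of the secretory fate, had 0.726 RPKM at 24 h and 0.458 RPKM at 0 h and was not tested.

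Among 23 tested transcription factors of intestinal epithelium, 12 rose and 1 fell, but their median was only 0.16. Factors of gut identity were close to level: Cdx2 changed by -0.092 ± 0.063 (adjusted p = 0.223) and Hnf4a by 0.16 ± 0.053 (adjusted p = 0.0226). Hnf4a was no longer called without duplicate 2 of mouse 1 at 24 h (0.13) or without duplicate 1 of mouse 1 at 0 h (0.093), nor under quantile normalization (0.020) or on read sums (0.062), where Cdx2 was called lower (-0.14 and -0.18). Hnf4g, the paralogue of Hnf4a, had 42.2 and 45.2 (mouse 1) and 54.9 and 61.1 (mouse 2) RPKM at 24 h, against 9.22 and 10.4 (mouse 1) and 10.4 and 10.8 (mouse 2) RPKM at 0 h. Its groups did not overlap, and it rose by 2.25 ± 0.12 (adjusted p = 5.00e-09). Creb3l3, a membrane-bound factor that controls apolipoprotein genes in liver and gut, averaged 104 ± 15.1 RPKM at 24 h and 13.7 ± 0.852 RPKM at 0 h and rose by 2.88 ± 0.09. Maf rose by 1.23 ± 0.12 at a low level (1.21 ± 0.0947 RPKM at 24 h and 0.229 ± 0.00772 RPKM at 0 h), and the fatty acid receptor Ppara by 1.20 ± 0.076. The vitamin D receptor Vdr rose by 0.90 ± 0.16, and Foxa3 fell by 0.52 ± 0.089. The villus regulator Prdm1 was under the filter, at 0.517 RPKM at 24 h and 0.226 RPKM at 0 h.

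Genes of DNA replication fell almost without exception, each by less than 2-fold. Of 40 genes 38 fell and none rose, with a median of -0.61. Mcm5, a subunit of the helicase that opens replication origins, had 44.6 and 42.6 (mouse 1) and 42.1 and 40.9 (mouse 2) RPKM at 24 h, against 77.6 and 77.5 (mouse 1) and 65.5 and 64.4 (mouse 2) RPKM at 0 h. The groups did not overlap, and the change was -0.73 ± 0.087 (adjusted p = 1.09e-05). Cdt1, which loads that helicase, fell by 0.85 ± 0.10, and Rrm2, the regulated subunit of ribonucleotide reductase, by 0.89 ± 0.069. The clamp Pcna fell by 0.25 ± 0.082 and averaged 139 ± 6.81 RPKM at 24 h and 166 ± 19.1 RPKM at 0 h. Ccne2, a cyclin of the start of S phase, was not called (-0.24 ± 0.10). Ccne2 was called without duplicate 1 of either mouse at 24 h (-0.25 and -0.30) or duplicate 2 of mouse 2 at 0 h (-0.26). Of 42 genes of mitosis 39 fell and none rose, with a median of -0.43. Mki67, the common proliferation marker, had 39.7 and 41.5 (mouse 1) and 37.3 and 39.6 (mouse 2) RPKM at 24 h, against 49.9 and 60.0 (mouse 1) and 53.0 and 51.6 (mouse 2) RPKM at 0 h. All 24 h values were below all 0 h values (-0.43 ± 0.066, adjusted p = 9.02e-05). Ccnb1 (cyclin B1) and Aurkb (a kinase of chromosome segregation) fell by 0.61 ± 0.057 and 0.64 ± 0.074. Both lists together held 0.645% ± 0.0416 of reads at 24 h, against 0.975% ± 0.0510 at 0 h.

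The promoters of Mcm5 and Cdt1 were chosen within the same limits. They had the largest falls of the replication and mitosis lists with an E2F motif, E2F being the factors that switch on S-phase genes. Capitals mark TTCCCGC or TTGGCGC or their reverse complements.
Mcm5, chr8:75109259-75109558, plus strand: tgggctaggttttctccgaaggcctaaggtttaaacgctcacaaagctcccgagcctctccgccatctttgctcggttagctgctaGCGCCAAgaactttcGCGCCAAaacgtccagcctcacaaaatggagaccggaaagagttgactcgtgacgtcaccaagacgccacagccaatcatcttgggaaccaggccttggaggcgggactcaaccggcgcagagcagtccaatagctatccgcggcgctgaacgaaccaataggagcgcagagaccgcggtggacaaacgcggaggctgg
Cdt1, chr8:122567765-122568064, plus strand: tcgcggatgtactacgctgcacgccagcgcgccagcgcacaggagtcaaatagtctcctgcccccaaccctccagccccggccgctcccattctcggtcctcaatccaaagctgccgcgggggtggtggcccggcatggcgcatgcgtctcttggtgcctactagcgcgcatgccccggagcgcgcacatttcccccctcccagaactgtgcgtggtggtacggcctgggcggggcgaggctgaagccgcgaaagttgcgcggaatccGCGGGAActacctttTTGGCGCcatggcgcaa
The matches in Mcm5 start 164 and 149 bases before the gene start, and those in Cdt1 lie 18 and 33 bases after it. One of these motifs was in 19 of 38 promoters of replication genes, in 21.6% of 37 promoters of mitosis genes and in 12.1% of all 11541 promoters of tested genes. It was in 4.02% of the 523 promoters of genes that rose at least 2-fold and in none of the 31 of the enzyme and fat absorption lists. The letters CCAAT were in 57.9% of the replication promoters, 75.7% of the mitosis promoters and 38.4% of all.

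Genes that hold the cell cycle mostly rose, 8 of 11, with 2 that fell. Cdkn2b, an inhibitor of the G1 kinases, averaged 52.0 ± 5.49 RPKM at 24 h and 22.3 ± 4.87 RPKM at 0 h and rose by 1.22 ± 0.10. Mxd4 and Mxd1, which compete with Myc for its partner Max, rose by 0.95 ± 0.11 and 0.79 ± 0.047. Cdkn1a, the p21 inhibitor, fell by 0.32 ± 0.067 from a high level, with 104 ± 7.81 RPKM at 24 h and 130.4 ± 5.76 RPKM at 0 h.

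The machinery of protein synthesis fell in the same way. All 35 genes of ribosome assembly fell, with a median of -0.54. Mybbp1a, a nucleolar protein, fell by 0.76 ± 0.049 and Ncl (nucleolin) averaged 195 ± 8.05 RPKM at 24 h and 292 ± 1.12 RPKM at 0 h, a change of -0.58 ± 0.075. Of 76 ribosomal protein genes 70 fell and none rose, with a median of -0.33. They held 2.58% ± 0.118 of reads at 24 h, against 3.45% ± 0.0187 at 0 h. Rpl3 fell by 0.49 ± 0.061, but reads of many of these genes can also match processed pseudogenes, so single values are uncertain. Of 18 cytosolic tRNA synthetases 15 fell, with Vars at -0.59 ± 0.051. Under quantile normalization and scaling to read sums the counts that fell were 73 and 72 of the ribosomal proteins and 39 and 40 of the replication genes. Cad, the first enzyme of pyrimidine synthesis, chosen after its values were seen, fell by 0.91 ± 0.075.

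Peroxisomes and fat burning rose while the respiratory chain stayed near level. All 10 peroxisomal genes rose, 7 at least 2-fold, with a median of 1.12. Ehhadh, a bifunctional enzyme of peroxisomal oxidation, averaged 33.8 ± 6.48 RPKM at 24 h and 12.3 ± 0.417 RPKM at 0 h and rose by 1.41 ± 0.086. Of 20 mitochondrial fatty acid oxidation genes 17 rose and 1 fell, with a median of 0.36. Hadh, which acts on short chains, rose by 1.19 ± 0.086 and Acaa2, the last step of the cycle, by 0.95 ± 0.083. Of 66 nuclear genes of oxidative phosphorylation 18 rose and none fell, at a median of 0.073, while 29.2% of all tested genes were higher. The direction of this list depended on scaling, with 9 higher and 10 lower under quantile normalization and 9 higher and 7 lower on read sums. In the citric acid cycle 7 of 14 genes rose and 2 fell, with Mdh2 at 0.76 ± 0.063, Pcx (pyruvate carboxylase) at 0.90 ± 0.075 and Idh2 at -0.42 ± 0.063.

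Of 24 genes of cholesterol synthesis and its control 11 rose and 3 fell, against 9 and 6 under quantile normalization and 8 and 7 on read sums. Insig1, the brake on the pathway, rose by 0.72 ± 0.09. Glycolysis was close to level, with 3 of 14 genes higher and 1 lower, but 2 higher and 4 lower under quantile normalization and on read sums. Among 10 genes of the response to low oxygen 5 rose and none fell. Ndrg1 averaged 82.5 ± 13.1 RPKM at 24 h and 20.0 ± 0.0235 RPKM at 0 h and rose by 2.01 ± 0.063, the carbonic anhydrase Car9 by 1.25 ± 0.092 and Bnip3 by 1.18 ± 0.18, while Vegfa was not called (-0.028 ± 0.076). Of 22 lysosomal genes 12 rose and 4 fell, against 8 and 6 on read sums and 2 falls without duplicate 2 of mouse 1 at 0 h. Over all tested genes, 29.2% were higher and 30.3% lower.

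Cyp1a1 and Cyp1b1, the deepest falls, are genes that the aryl hydrocarbon receptor, a sensor of aromatic compounds, switches on. Of 5 targets 3 fell, all at least 2-fold. Cyp1a1, a cytochrome P450 and the usual readout of that receptor (gene at chromosome 9, 57687928 to 57703824, GRCm38), had 0.354 and 0.533 (mouse 1) and 0.272 and 0.184 (mouse 2) RPKM at 24 h, against 15.7 and 17.7 (mouse 1) and 13.6 and 12.7 (mouse 2) RPKM at 0 h. Every 24 h library lay far below every 0 h library, a change of -4.21 ± 0.11 (adjusted p = 5.22e-11). Cyp1b1 averaged 4.45 ± 1.15 RPKM at 24 h and 27.9 ± 1.16 RPKM at 0 h, a change of -2.54 ± 0.15, and Ahrr, the repressor that the receptor induces against itself, changed by -1.74 ± 0.092. The targets Tiparp (0.066 ± 0.082) and Nqo1 (0.023 ± 0.053) were not called. Aldh3a1, an aldehyde dehydrogenase also known as a target of the receptor but outside the list, fell by 1.18 ± 0.11.

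The other genes that fell at least 2-fold were few and mixed. Beside Cck, Gip and Gcg they include Slc2a6, a sugar transporter, with 1.53 and 1.53 (mouse 1) and 1.06 and 0.990 (mouse 2) RPKM at 24 h, against 7.23 and 7.81 (mouse 1) and 5.99 and 6.08 (mouse 2) RPKM at 0 h. Its groups were apart in both mice (-2.04 ± 0.092, adjusted p = 1.83e-09). Sncg (gamma-synuclein) fell by 1.38 ± 0.10, the muscle-related peptidase gene Ky by 1.11 ± 0.093, the kinase gene Hunk by 1.09 ± 0.072, Fam222a by 1.07 ± 0.14 and Fam20c, a kinase of secreted proteins, by 1.05 ± 0.06. Zfp750 and Grhl3, transcription factors known for driving skin barrier formation, fell by 1.08 ± 0.092 and 1.03 ± 0.10. Snord35a, a small nucleolar RNA inside a ribosomal protein gene, fell by 1.05 ± 0.30 and by 0.56 in mouse 1 alone (not called), and reads of its host cannot be told apart from it. Zscan4c, Zscan4f and Usp17le complete the 19. The number of 2-fold falls was sensitive to the added value, at 45 with 0.1 and 10 with 1 RPKM.

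Stress and signalling lists moved in part. Of all tested genes, 29.2% were called higher and 30.3% lower, so counts near these shares do not set a list apart. Of 19 genes of the integrated stress response, which raises amino acid supply, 11 fell and 4 rose. The serine pathway enzymes Shmt2, Phgdh and Psat1 fell by 0.66 ± 0.054, 0.53 ± 0.06 and 0.41 ± 0.053, while Cth, which makes cysteine, rose by 1.20 ± 0.063 and the stress factor Ddit3 by 0.76 ± 0.10. Among 18 tested chaperones of the endoplasmic reticulum 7 rose and 1 fell, with Dnajb9 at 1.16 ± 0.11 and the main chaperone Hspa5 not called (0.12 ± 0.074). Antioxidant targets of NRF2 moved both ways, 4 higher and 4 lower of 11, not far from those shares. They were 2 higher and 6 lower under quantile normalization and on read sums. Hmox1, which breaks down heme, fell by 0.67 ± 0.052.

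Among 17 tested interferon genes of 25, 13 rose and 1 fell, with a median of 0.43. Irf7, a factor that drives interferon genes, averaged 10.7 ± 0.562 RPKM at 24 h and 5.14 ± 0.112 RPKM at 0 h and rose by 0.99 ± 0.086, and Stat2 by 0.57 ± 0.056. Bst2, which tethers viruses at the surface, fell by 0.70 ± 0.082. Isg15 was not called (-0.064 ± 0.25), and Cxcl10 and Rsad2 were under the filter. Of 11 tested genes of antigen presentation 10 rose, with B2m, the light chain of MHC class I, at 0.79 ± 0.079. H2-T3, a class I molecule of gut epithelium, rose most, by 2.10 ± 0.10.

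Markers of fetal-like, regenerating epithelium moved in both directions and changed little as a list. Of 13 tested genes 6 rose and 2 fell, with a median of 0.10. Clu, the marker of revival stem cells, had 2736 and 2785 (mouse 1) and 2577 and 2465 (mouse 2) RPKM at 24 h, against 1906 and 1965 (mouse 1) and 2144 and 2016 (mouse 2) RPKM at 0 h. It was among the most abundant of these transcripts at both times and rose by 0.40 ± 0.078, but not under quantile normalization (-0.11). Ly6a (Sca-1) averaged 398 ± 46.4 RPKM at 24 h and 578 ± 69.3 RPKM at 0 h and fell by 0.54 ± 0.075, and the EGF receptor ligand Areg fell by 0.54 ± 0.11. Sprr1a, a small proline-rich protein, rose by 1.31 ± 0.12, while Msln (0.10 ± 0.069) and Anxa1 (-0.13 ± 0.12) were not called. Among 10 tested targets of YAP, a coactivator of growth genes, 3 rose and 1 fell, with Ankrd1 at 1.44 ± 0.10 and Cyr61 at -0.00093 ± 0.077 (adjusted p = 0.993). The share that rose is near the 29.2% of all tested genes that were higher. Immediate early genes were close to their start, with 1 of 13 tested higher and 4 lower. ERK feedback genes fell at 6 and rose at 3 of 11, with Etv4 at -0.47 ± 0.067 and Dusp6 at 0.52 ± 0.052. Of 4 tested BMP targets, 1 rose and 1 fell.

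Junction and keratin genes moved as single members. Of 15 junction genes 6 rose and 1 fell, against 3 and 2 on read sums. Of all tested genes, 29.2% were higher and 30.3% lower. Cldn15, a claudin that forms sodium pores, averaged 142 ± 31.3 RPKM at 24 h and 28.4 ± 1.84 RPKM at 0 h and rose by 2.29 ± 0.13, whereas Cldn4, a sealing claudin, fell by 0.60 ± 0.067. Krt20, the keratin of mature cells, was the keratin that rose, by 1.29 ± 0.088. Krt8 was not called (-0.11 ± 0.069), but was called lower under quantile normalization (-0.45) and on read sums (-0.20).

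The 6 h vehicle libraries place these changes in time. They share the 0 h libraries with the comparison above, so the values only stand side by side. At 6 h against 0 h, 22.3% of tested genes were higher and 23.4% lower. The brush border enzymes had a median change of 0.084 at 6 h and 2.27 at 24 h, with none of 14 higher and 2 lower at 6 h. Paneth genes had -0.31 and 1.81, and sugar genes -0.38 and 2.54, so these rises came after 6 h. Microvillus genes had already moved, with 10 of 16 higher at 6 h. Fat absorption genes had moved in part, with 8 of 21 higher and 1 lower at 6 h (median 0.19). Ribosome assembly genes were as low at 6 h (-0.52) as at 24 h (-0.54). DNA replication genes stood at -0.40 and -0.61. Mitosis genes were not yet down at 6 h (median 0.083, with 12 of 42 higher and 4 lower), and 39 of 42 were lower at 24 h. Krt20 stood at 1.38 ± 0.088 at 6 h and 1.29 ± 0.088 at 24 h. Immediate early genes were higher at 6 h in 8 of 13 (median 0.51) and had a median of -0.00084 at 24 h. Ascl2 averaged 7.08, 2.96 and 3.55 RPKM at 0, 6 and 24 h, and Olfm4 3.06, 2.53 and 21.8 RPKM. Cyp1a1 averaged 14.9, 1.53 and 0.336 RPKM at those times.

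**Figure D4:**
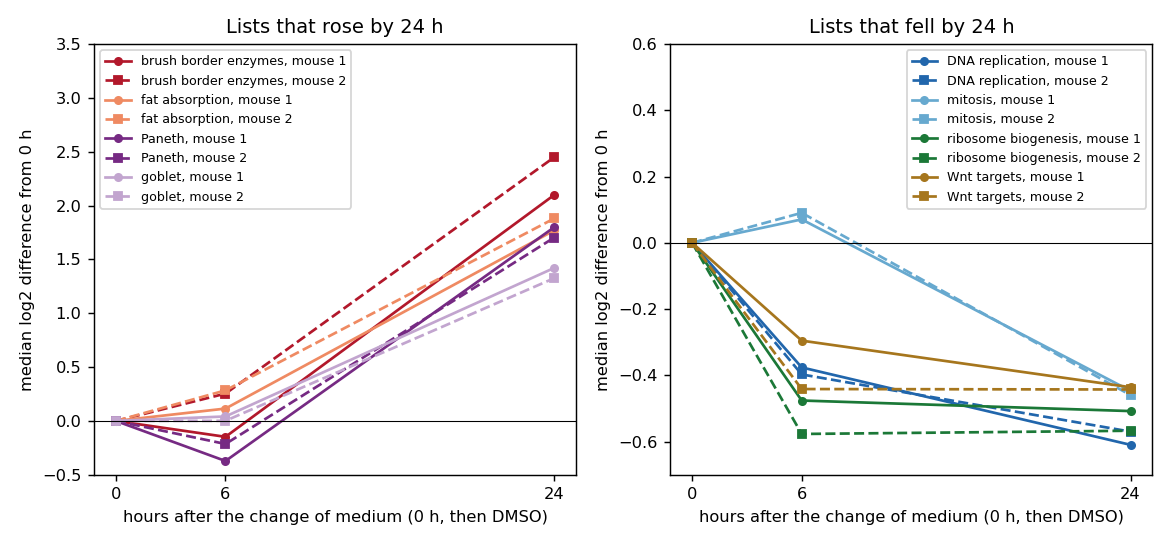
Median log2 difference from 0 h (y axis) of 8 gene lists at 0, 6 and 24 h (x axis, hours), with solid lines and circles for mouse 1 and dashed lines and squares for mouse 2. The medians of the 4 lists that rose do so mostly between 6 and 24 h, with fat absorption slightly above 0 at 6 h in both mice. Ribosome assembly, replication and Wnt target genes are down by 6 h. Mitosis genes are slightly above 0 at 6 h and down at 24 h.

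Nearly all called genes changed in the same direction in both cultures. Of 6754 called genes, 6751 had the same sign in both mice. A call rests on the mean change of these 2 mice, so it favours genes of equal sign. Across the 11361 tested genes the changes of the 2 mice had r = 0.947. That value is a description across genes, which are not independent replicates. The rise was larger in mouse 2 for all 14 brush border enzymes and all 9 sugar genes. Of the 11361 tested genes, 6349 had a higher signed change in mouse 2, which for a gene that fell means a smaller fall. Treh changed by 3.55 in mouse 1 and 4.40 in mouse 2. A test of the difference between the mice, with duplicates as the spread, called 1 gene (0.0088%): Chdh, the choline dehydrogenase, changed by 0.26 in mouse 1 and 0.81 in mouse 2, a difference of 0.54 ± 0.076 (adjusted p = 0.00269), while 935 genes had an unadjusted p under 0.05.

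**Figure D5:**
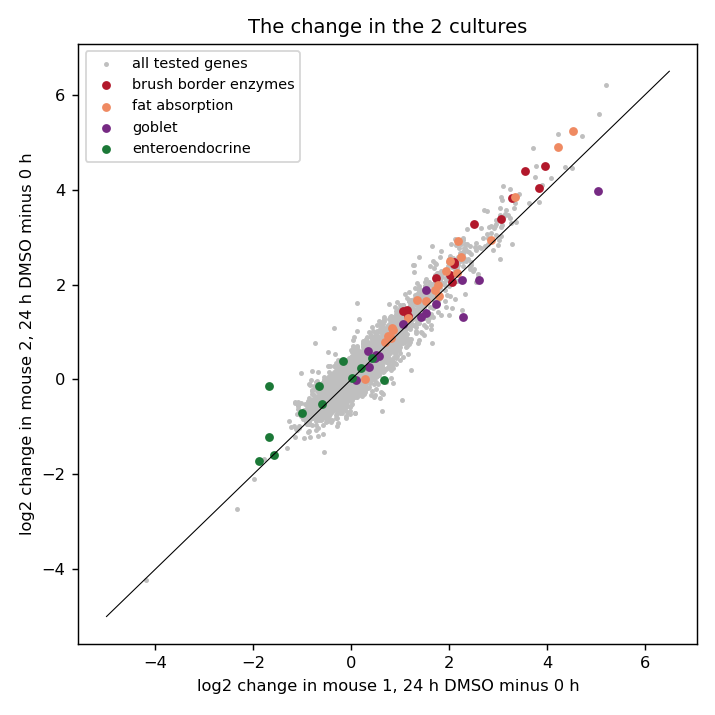
Log2 change (24 h DMSO minus 0 h) in mouse 1 (x axis) and mouse 2 (y axis) for all tested genes in grey and 4 gene lists in colour, with the line of equal change. All 14 brush border enzymes lie above the line, Alpi almost on it, and the called hormone genes Cck, Gip and Gcg lie below 0 on both axes.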

How the data were processed

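Organoids from 2 mice were sequenced in duplicate after mRNA library preparation. The authors deposited RPKM values (reads divided by gene length and library size) for 12652 genes in 36 libraries. Per the submitters' processing notes bcl2fastq 2.17, STAR 2.5.2b and the build mm10 were used, and the counting step is not given in the sources used here. Whole reads could be recovered for 100% of genes (tolerance 0.05 reads). The divisor of each library followed median-of-ratios size factors (SD of the log ratio 0.661%) more closely than read sums (5.47%), and RPKM here thus carries that scaling. Values of 0 occurred 102 times in the 8 libraries, in 54 genes.

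A gene was tested if 4 or more of the 36 libraries reached 1 RPKM (11361 genes), so a gene may have passed through other treated libraries or through the group where it is high. From log2(RPKM + 0.5), with duplicates averaged, limma 3.58.1 (R 4.3.3) was fitted to 18 values of 9 conditions with the mouse as a block and an intensity trend, with 8 residual and 5.01 prior degrees of freedom. Tests were two-sided, with Benjamini-Hochberg adjustment over all tested genes and calls at an adjusted p below 0.05. The difference between mice was fitted on all 36 libraries. The p-values rest on 2 cultures and cover only the spread between them. The labels name the animal, which pairs the libraries. Differences between the mice correlated at 0.36 between 24 h and 0 h (median 0.44 over 36 pairs of conditions). Those between duplicate numbers correlated at 0.30 between 24 h and 0 h, with a median of -0.048 over the pairs of conditions.

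The 52 gene lists and their members were chosen with earlier results of these data known. Their members were counted, with no test of a list. Genes named are the 15 largest rises and every fall of at least 2-fold (called, same sign in both mice, mean of at least 1 RPKM at 1 time), up to 4 called members of each list and direction by smallest p, a panel of markers, and the 5 genes with the largest difference between mice in each direction. Other genes named were chosen after their values were seen. Values of some genes of these lists are not reported here. Gene positions and promoters are those of RefSeq on GRCm38.p6. The statistical steps were tested on simulated data. Alternatives changed the added value, the filter, the scaling, the block, the libraries in the fit and the thresholds.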

Additional observations from a re-analysis of the deposited data

Results flagged for a closer look

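Among 434 sets of 4 libraries (each gene whose values are given, at 24 h and at 0 h), 17 held 1 library whose gap to the others passed Dixon's 95% limit, where chance gives about 1 in 20. That limit assumes 4 independent values, while each set is 2 pairs of duplicates. A small gap can pass it where the other libraries lie close together. At 24 h, single libraries lay above the other 3 for Cdca7 at 29.6 RPKM in mouse 1, duplicate 1 (others 26.4 to 26.5), Dusp6 at 25.9 RPKM in mouse 1, duplicate 2 (others 24.4 to 24.6) and Gcg at 3.87 RPKM in mouse 2, duplicate 2 (others 2.40 to 2.57). Libraries above the rest of the 24 h group also included Gkn3 at 5.07 RPKM in mouse 2, duplicate 1 (others 4.21 to 4.34), Hspa5 at 436 RPKM in mouse 2, duplicate 2 (others 408 to 411) and Lyz1 at 31.7 RPKM in mouse 2, duplicate 2 (others 29.1 to 29.3). The 24 h group further had high values for Vim at 1.75 RPKM in mouse 1, duplicate 2 (others 1.03 to 1.10). At 24 h, single libraries lay below the other 3 for Dnajb9 at 9.44 RPKM in mouse 1, duplicate 2 (others 10.7 to 10.8) and Zscan4c at 0.486 RPKM in mouse 1, duplicate 1 (others 0.783 to 0.806). At 0 h, single libraries lay above the other 3 for Actb at 1717 RPKM in mouse 1, duplicate 2 (others 1542 to 1550.2) and Cldn15 at 32.4 RPKM in mouse 2, duplicate 2 (others 27.0 to 27.2). Libraries above the rest of the 0 h group also included Ephb2 at 24.5 RPKM in mouse 1, duplicate 2 (others 20.7 to 20.9), Insig1 at 64.1 RPKM in mouse 1, duplicate 2 (others 59.0 to 59.7) and Reg1 at 6.09 RPKM in mouse 1, duplicate 1 (others 5.76 to 5.81). At 0 h, single libraries lay below the other 3 for Apob at 32.6 RPKM in mouse 1, duplicate 1 (others 43.9 to 44.7), Slc6a20a at 0.366 RPKM in mouse 2, duplicate 1 (others 0.534 to 0.558) and Vil1 at 277 RPKM in mouse 1, duplicate 1 (others 319.9 to 322). In each of these genes except Actb the libraries of the 2 times did not overlap. Over all 11361 tested genes, 3163 were wholly higher and 3181 wholly lower at 24 h, and the named genes were mostly called ones. The choline dehydrogenase Chdh was the 1 gene whose change differed between the cultures by a test of the difference itself, by 0.54 ± 0.076 on the log2 scale (limma adjusted p = 0.00269), with a rise of 0.81 in mouse 2 and 0.26 in mouse 1. Both mice showed the same direction.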

How the results depend on the processing

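With a 2-fold limit added to the threshold, 553 genes were higher and 19 lower, and this was the only alternative that moved the counts of called genes by over 1.5 times. Leaving out 1 library in turn gave 3207 to 3392 genes higher and 3353 to 3437 lower. The fit without the replicate block of the mouse gave 3019 and 3051, and libraries taken as separate samples with mouse and duplicate number as a replicate block gave 3577 and 3733. Without the mouse block, Pcna, Mmp7, Cpe, Cps1, Fgf15, Ltc4s and Pmp22 were no longer called (Mmp7 at an adjusted p = 0.473, limma), and the cause was not tested. An adjusted p below 0.01 left 2691 and 2653. The number that fell at least 2-fold ranged from 8 (mean of at least 5 RPKM) to 45 (0.1 added). Of 189 named genes with a call, 172 kept their call and direction under all 23 alternatives that list genes. Direction reversed for Clu under quantile normalization (-0.11) and for Pmp22 without mouse 1 (-0.084), and the cause was not tested. Hes1 was not called without mouse 1 and Zscan4d and Snord35a not without mouse 2. Counts of 1 or 2 members in a list often moved by 1. Among the oxidative phosphorylation genes, 9 were higher and 4 lower without mouse 2, and 6 immediate early genes were then higher. Motif shares taken only before the gene start were 10.1% for CAAAGTC and 11.1% for GTTAAT among promoters of genes that rose at least 2-fold, and 34.2% for E2F letters among replication promoters. Over all promoters of tested genes, the shares in that window were 3.42%, 4.10% and 9.92%. At this depth 1 read was worth up to 0.0244 RPKM, and genes under the filter, Lgr5 and Atoh1 among them, were not judged.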

Other observations

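A small set of genes best known from early mouse embryos was lower at 24 h. Zscan4 genes mark a passing state of embryonic stem cells that resembles the embryo at the time its own genome is switched on. They were picked out after their values were seen, because Zscan4c and Zscan4f were among the falls of at least 2-fold. Zscan4f had 0.562 and 0.941 (mouse 1) and 1.04 and 0.561 (mouse 2) RPKM at 24 h, against 2.75 and 1.69 (mouse 1) and 1.90 and 2.52 (mouse 2) RPKM at 0 h, a change of -1.09 ± 0.17 (adjusted p = 9.44e-05, limma). All 4 of its 24 h values were below all 4 of its 0 h values. Zscan4a, Zscan4b, Zscan4c and Zscan4d changed by -0.98 ± 0.17, -0.92 ± 0.19, -1.08 ± 0.19 and -0.88 ± 0.19. Usp17lc, Usp17ld and Usp17le, deubiquitinase genes, changed by -0.78 ± 0.20, -0.90 ± 0.16 and -1.02 ± 0.16, and Pramef25 by -0.84 ± 0.19. All of these were below 3 RPKM at both times. Their copies are near-identical, so the reads of a family cannot be split with certainty. Whether a few cells or all cells carry these transcripts was not tested.

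Prl2c2 and Prl2c3, near-identical genes of the prolactin family known as proliferins and picked after their values were seen, were much more abundant. Prl2c2 had 52.9 and 62.7 (mouse 1) and 46.0 and 42.7 (mouse 2) RPKM at 24 h, against 118 and 96.5 (mouse 1) and 84.6 and 73.3 (mouse 2) RPKM at 0 h, a change of -0.85 ± 0.083 (adjusted p = 1.85e-06, limma), and Prl2c3 changed by -0.84 ± 0.10. Both groups were apart. Other falls just short of 2-fold, also picked after their values were seen, were Mybl2, a transcription factor of dividing cells (-0.88 ± 0.068), the stress cytokine Gdf15 (-0.90 ± 0.12) and the chromatin protein Hmga2 (-0.82 ± 0.14). Actb (beta-actin) averaged 1589, 2814 and 1806 RPKM at 0, 6 and 24 h, and its change over 24 h was 0.18 ± 0.11 (adjusted p = 0.152).

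The genes with the largest difference between the mice were not called in that test. The change was larger in mouse 2 for Adh4 (4.88 in mouse 2 and 3.71 in mouse 1), Nat8, Cox7a1, Slc16a3 and Fbp1. It was larger in mouse 1 for Zg16 (3.97 in mouse 2 and 5.04 in mouse 1), Clca1, Fcna and Pmp22. Snord35a fell further in mouse 2 (-1.54 in mouse 2 and -0.56 in mouse 1).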
